A study of Mus musculus with 2 samples.

Results

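Some stretches that carried wild-type H2A.Z as a single enriched region were parted by a gap in cells with the mutant H2A.Z.K3R3, and 1004 such split wild-type regions are described here. They were the wild-type regions under 2000 bp wide, on the autosomes other than 6 and 8, that overlapped at least 2 K3R3 regions by 1 bp or more, both taken from the looser lists (threshold 1e-09). These 1004 made up 1.24% (95% Wilson interval 1.16 to 1.31) of 81287 wild-type regions that met the limits of width and chromosome, out of 99812 in the whole looser wild-type list. That count, the number of K3R3 regions in each and the size and place of the gap all follow from the lists that chose the members, so they are given as a description.

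The histone variant H2A.Z takes the place of H2A in nucleosomes at promoters and enhancers. At active and poised start sites it typically sits in the nucleosomes on either side of a stretch with few nucleosomes, so a single promoter can show enrichment on both flanks of a dip. Its C-terminal tail can carry a single ubiquitin, a mark set by the RING1 ligases of Polycomb repressive complex 1, and lysine-to-arginine changes there remove the sites for it.

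Both groups were mouse embryonic stem cells made by lentiviral infection of the KH2 line (the strain label reads V6.5), with a doxycycline-driven CMV promoter expressing H2A.Z fused at its C-terminus to YFP. One group carried the wild-type protein and the other K3R3, in which 3 lysines of the C-terminal tail are arginines. Both groups received 1 µg/ml doxycycline, were sorted for YFP and carried hairpins that lower endogenous H2A.Z through its 3′ UTR, so the wild type is also a tagged transgene in depleted cells. Chromatin was immunoprecipitated with Abcam ab290, an antibody raised against GFP that also binds YFP, and sequenced.

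Each group had a single library, so differences could not be checked on replicates and p-values are not reported. Each library came with a looser and a stricter list (threshold 1e-12) of region starts and ends, with no height or score. The lists do not give depth, and the intervals printed cover the counting error over regions only. All coordinates lie on a 25 bp grid, and no list has neighbouring regions closer than 225 bp, so no gap narrower than that can appear.

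Splits were mostly into 2 pieces, and the gap was short. In 978 of the 1004 regions (97.4%) there were 2 K3R3 regions, and in 26 there were 3, which gives 1030 gaps. The median gap was 250 bp wide (95% binomial interval 250 to 250; quartiles 225 and 300). The widest gap was 725 bp. The smallest width that the lists can show was the commonest, with 366 gaps (35.5%) of 225 bp, 222 (21.6%) of 250 bp, 136 (13.2%) of 275 bp and 74 (7.18%) of 300 bp. Gaps of at least 400 bp numbered 105 (10.2%), and those of at least 500 bp 33 (3.20%). A gap took up a median of 22.6% of its wild-type region (quartiles 17.3 and 29.4).

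The split regions were wide for this list, which the rule partly fixes, since a region must hold a gap and a piece of K3R3 on either side. Their median width was 1225 bp (1175 to 1250; range 350 to 1975), and that of the 67122 wild-type regions with exactly 1 K3R3 region was 350 bp. Split regions formed 0.738% (0.597 to 0.912) of wild-type regions between 500 and 750 bp and 2.61% (2.25 to 3.01) of those between 750 and 1000 bp. The share was 6.54% (5.98 to 7.15) between 1000 and 1500 bp and 11.9% (10.7 to 13.2) between 1500 and 2000 bp. Beyond the limit, 308 of 1548 wild-type regions of at least 2000 bp (19.9%) met the rest of the rule. Among regions under the limit, the share split therefore rose from class to class.

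Just inside the width limit, a region of 1975 bp on chromosome 1 (89367701 to 89369675) had 2 K3R3 regions parted by 225 bp, and another of 1975 bp on chromosome 2 (168523251 to 168525225) had a gap of 625 bp. Just outside, a pair of regions of 2000 bp on chromosome 1 (94960651 to 94962650 and 135388726 to 135390725) had gaps of 225 and 250 bp. At the limit of overlap, 70 members (6.97%) held a K3R3 region that reached only 25 bp into them. Beyond that limit, 9 of the 67122 regions with exactly 1 K3R3 region had a further one that began within 25 bp of an end.

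**Figure D1:**
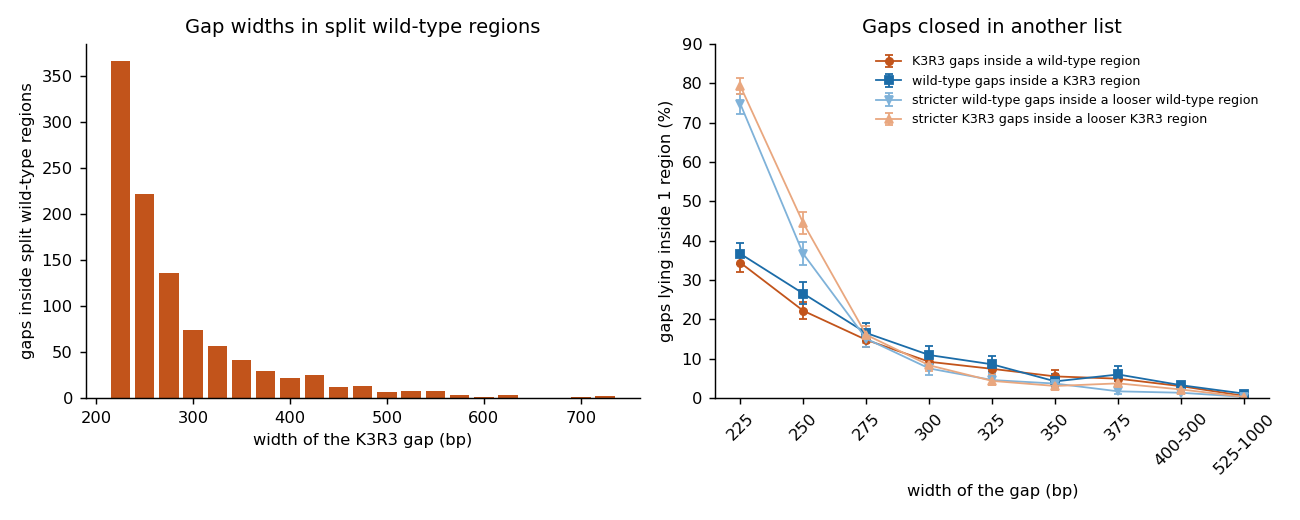
Left, number of K3R3 gaps inside split wild-type regions by gap width in bp, with 366 of 1030 at the smallest width of 225 bp. Right, the share (%) of gaps between neighbouring regions of a list that lie inside 1 region of another list, by gap width in bp, with 95% Wilson intervals; the between-library shares start at 34.4% and 36.7% and fall below 5% at 400 to 500 bp.

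How often a K3R3 gap was closed in the wild type depended on its width. Of the 1394 gaps of 225 bp between neighbouring K3R3 regions on these autosomes, 480 (34.4%, 32.0 to 37.0) lay inside a wild-type region of any width. The share was 22.2% (20.03 to 24.5) at 250 bp, 14.8% (12.9 to 17.0) at 275 bp and 9.24% (7.64 to 11.1) at 300 bp. It was 3.03% (2.51 to 3.65) from 400 to 500 bp and 0.558% (0.421 to 0.739) from 525 to 1000 bp. Wider K3R3 gaps were thus rarely bridged.

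The same fall was seen in the other direction and between the 2 lists of a single library. Gaps of 225 bp in the wild type lay inside a K3R3 region in 36.7% (34.0 to 39.5) of 1177 cases, and those of 400 to 500 bp in 3.27% (2.66 to 4.03). Within the wild-type library, 74.8% (72.3 to 77.2) of the 225 bp gaps of the stricter list were closed in the looser one, and within K3R3 79.4% (77.2 to 81.4). By 325 bp the order had turned, with 7.44% (5.97 to 9.24) of K3R3 gaps closed in the wild type against 4.59% (3.32 to 6.32) and 4.37% (3.27 to 5.82) closed within a library. The values stood in this order already at 300 bp, with 9.24% against 7.54% and 8.34%. The narrowest gaps were closed more often by a looser threshold in the same library than by the other library. For K3R3 gaps of 325 bp the interval overlaps that within the wild type but not that within K3R3. For wild-type gaps of 325 bp the share closed in K3R3 was 8.58% (6.77 to 10.8), whose interval overlaps neither. The widths beside it were less clear. At 300 and 350 bp the intervals for K3R3 gaps and for wild-type gaps overlap those within both libraries. At 375 bp and from 400 to 500 bp they overlap that within K3R3 but not that within the wild type. From 525 to 1000 bp the interval for K3R3 gaps overlaps both, and that for wild-type gaps overlaps neither.

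Gaps lay towards the middle of the wild-type region. The centre of the gap was a median of 137.5 bp (125 to 150) from the centre of the region. On a scale where 0% is the centre of the region and 100% an end, the median was 23.7% (22.5 to 26.4; quartiles 11.1 and 41.2). In 881 of 1030 gaps (85.5%) the centre fell in the middle 50% of the region. The distance from the gap to the nearer end was a median of 275 bp, and 37 gaps (3.59%) came within 50 bp of an end.

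A gap needs room on both sides, which keeps its centre off the ends. Measured against the farthest place a gap of its width could take, regions with a single gap had a median distance of 33.3% (29.4 to 34.9) from the centre. For the breaks that the stricter wild-type list made in 832 regions of at least 500 bp with exactly 1 K3R3 region, the median was 36.0% (33.3 to 38.5). The gaps were split about evenly between the left side (482) and the right side (514), and 34 were exactly central. Strand is unknown for these regions, so left and right carry no direction of transcription.

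**Figure D2:**
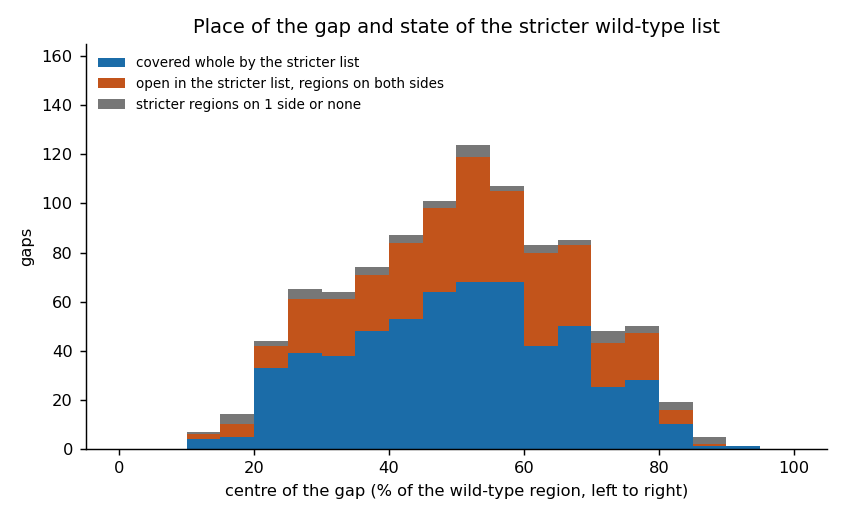
Number of gaps (vertical axis) by the place of the gap centre, in % of the wild-type region from left to right, for the 978 regions with a single gap. Colours give the state of the stricter wild-type list at the gap; the gaps pile up in the middle and each state occurs along most of the range.

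The K3R3 pieces kept close to the outer edges of the wild-type region. The outer K3R3 edge coincided with the wild-type edge at 543 of 2008 ends (27.0%) and lay within 50 bp of it at 1559 (77.6%). All K3R3 pieces lay inside the wild-type region in 591 members (58.9%), K3R3 reached past exactly 1 end in 321 (32.0%) and past both in 92 (9.16%). K3R3 covered a median of 71.4% of the wild-type region (quartiles 61.5 and 79.2). The summed width of the K3R3 pieces exceeded that of the wild-type region in 44 members (4.38%). The difference thus lay mostly in the gap rather than at the ends, which is partly built in, because each member was picked for having a gap.

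The pieces were often unequal. In members with 2 K3R3 regions, the wider had a median width of 600 bp (575 to 625) and the narrower 275 bp (250 to 275), and in 504 of 978 (51.5%) the wider was at least 2 times as wide. The wider piece was on the left in 493 and on the right in 452. Few members were links of a longer chain: 27 (2.69%) held a K3R3 region that also overlapped another wild-type region.

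The stricter wild-type list, which the rule did not use, showed the gap in a minority of cases and ran straight across it in most of the others. It comes from the same library as the looser wild-type list, so it is a second reading of the same reads. In 364 of 1030 gaps (35.3%, 32.5 to 38.3) the stricter list was open at the K3R3 gap with regions on both sides. In 614 gaps (59.6%, 56.6 to 62.6) every base of the gap was covered. In 51 (4.95%) the stricter list held regions on 1 side only, and in 1 it held no region at all.

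Where the stricter wild-type list had a break, it was nearly the K3R3 gap. The centres of the 2 gaps were a median of 25 bp apart (12.5 to 25), and within 50 bp in 315 of 364 pairs (86.5%). Both edges were identical in 56 pairs (15.4%), and the median Jaccard index, the length common to both gaps over the length in either, was 0.818 (0.800 to 0.818). The wild-type break was the narrower, with a median of 225 bp against 262.5 bp in K3R3. The K3R3 gap was the wider in 198 pairs (54.4%), the wild-type break in 61 (16.8%), and 105 (28.8%) were equal. Pairs were picked for overlap by at least 1 bp, so some closeness is built in. The narrower width of the wild-type break is partly built in too, since that break had to be closed in the looser wild-type list. Of all stricter wild-type gaps, 74.8% were so closed at 225 bp and 4.59% at 325 bp.

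**Figure D3:**
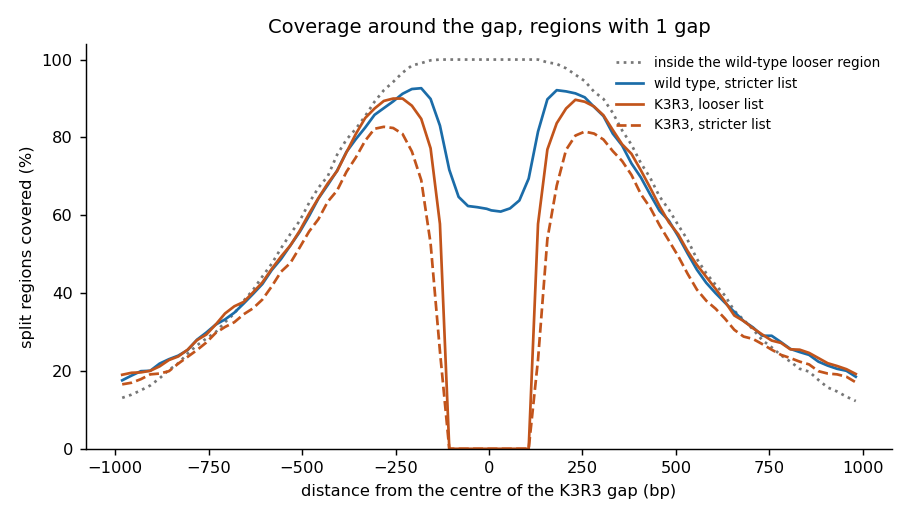
Share (%) of the 978 split regions with a single gap that were covered by each list, against the distance in bp from the centre of the K3R3 gap; the dotted line is the share still inside the wild-type looser region. The stricter wild-type list dips to about 61% at the centre from 92.6% on its left shoulder, where K3R3 is at 0 by the choice of members.

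The stricter wild-type list thinned more at the gap than beside it. Of all bases in the gaps, 66.7% were covered by it, against 93.7% of the bases of the same regions outside the gaps. In the regions with a single gap, the share covered was 92.6% at 181 bp to the left of the gap centre and 92.1% at 181 bp to the right. Near the centre itself it was 61.7% and 61.3%. The stricter wild-type list was thus open more often at the gap than beside it, although it covered most gaps whole. Without heights, the lists do not show whether the signal dipped in those covered gaps.

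Breaks in the stricter wild-type list were far more frequent in split regions than in other wild-type regions of like width. Over all widths under 2000 bp, 375 of 1004 split regions (37.4%, 34.4 to 40.4) had at least 2 stricter wild-type regions, against 1.6% of all 81287 wild-type regions and 1.29% of the 67122 with exactly 1 K3R3 region. Split regions are wider, so classes of width give the fairer comparison. Between 500 and 750 bp the shares were 25.9% (17.8 to 36.1) in split regions and 1.65% (1.43 to 1.92) in regions with exactly 1 K3R3 region. Between 750 and 1000 bp they were 33.5% (27.0 to 40.7) and 3.78% (3.34 to 4.29). Between 1000 and 1500 bp they were 38.5% (34.1 to 43.1) and 4.68% (4.18 to 5.25). In the widest class, 1500 to 2000 bp, they were 41.9% (36.4 to 47.7) and 7.59% (6.53 to 8.81).

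The intervals of the 2 kinds of region did not overlap in any of these 4 classes. In wild-type regions with no K3R3 region the shares were 2.23% (1.49 to 3.32), 1.88% (0.990 to 3.53), 5.74% (3.78 to 8.61) and 8.0% (3.72 to 16.4) from the narrowest of these classes to the widest, with intervals that overlap those of regions with exactly 1. None of the 5 split regions under 500 bp had a stricter break. Where split regions were broken in the stricter wild-type list, the break overlapped a K3R3 gap in 362 of 375 (96.5%, 94.2 to 98.0). Split regions made up 28.8% (26.4 to 31.3) of the 1302 wild-type regions that the stricter wild-type list broke.

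**Figure D4:**
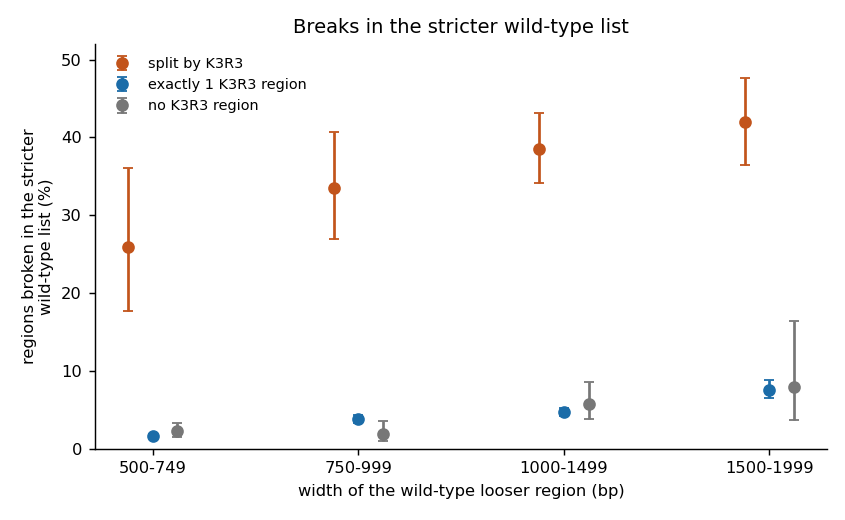
Share (%) of wild-type looser regions with at least 2 stricter wild-type regions, by width class in bp, for regions split by K3R3, with exactly 1 K3R3 region and with none; bars are 95% Wilson intervals. In all 4 classes the split regions, at 25.9% to 41.9%, lie above the others, which reach 8.0%.

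Wider gaps were shown somewhat more often by the stricter wild-type list. A wider gap has more room to meet a break by 1 bp, so some rise is built in. The share was 30.6% (26.1 to 35.5) of the 366 gaps of 225 bp, 31.5% (25.8 to 37.9) at 250 bp and 36.0% (28.5 to 44.4) at 275 bp. It was 43.8% (37.1 to 50.7) from 300 to 375 bp and 42.9% (33.8 to 52.4) at 400 bp or more. The interval at 225 bp does not meet that from 300 to 375 bp, while the other neighbours in this order overlap. By distance to the nearer end, the share shown was lowest under 100 bp, at 25.4% (16.1 to 37.8), and highest at 300 to 400 bp, at 39.4% (33.2 to 45.9). It was 34.5% (29.2 to 40.2) at 400 bp or more, and the intervals of all these classes overlap. Of the 59 gaps closer than 100 bp to an end, 23 (39.0%) had stricter wild-type regions on 1 side only, against 2 of the 287 gaps (0.697%) at least 400 bp from both ends. Stricter regions over a member lay inside it, so a short flank can be lost and this contrast is partly built in.

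The stricter K3R3 list covered no base of any gap, which the structure of the lists fixes in large part. Every stricter region that met a looser region of its own library lay wholly inside it (91184 in the wild type and 102917 in K3R3). Such a region cannot enter a gap of its looser list. A further 5962 stricter regions in the wild type and 7518 in K3R3 met no looser region of their library. None of those in K3R3 lay in these gaps. In 856 gaps (83.1%, 80.7 to 85.3) stricter K3R3 regions stood on both sides, in 167 (16.2%) on 1 side, and in 7 on neither. In those 856 the gap had a median of 300 bp in the stricter list against 250 bp in the looser. In 512 gaps (49.7%, 46.7 to 52.8) K3R3 was parted at both thresholds while the stricter wild type covered the whole gap. In 318 (30.9%, 28.1 to 33.8) both stricter lists showed the gap.

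The 5 single-gap members closest to the medians of width, gap width and gap place show both patterns. On chromosome 9, the wild-type region from 45820426 to 45821675 (1250 bp) held K3R3 regions of 300 and 625 bp, parted from 45820776 to 45821025. A single stricter wild-type region of 1200 bp ran across that gap of 250 bp. The region from 53344551 to 53345750 (1200 bp), also on chromosome 9, had K3R3 regions of 300 and 375 bp and was likewise crossed, by a stricter wild-type region of 1150 bp. In these 2 regions only the mutant library was parted at either threshold.

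In the other 3 the stricter wild-type list was parted too. On chromosome 5 (35590176 to 35591350) the K3R3 gap of 250 bp began at 35590501 and the stricter wild-type break of 225 bp at 35590476. On chromosome 7 (28110626 to 28111800) the K3R3 gap ran from 28110951 to 28111200 and the stricter wild-type break from 28110976 to 28111200. On chromosome 15 (73554826 to 73556000) the gap ran from 73555151 to 73555400 and the break from 73555176 to 73555400. In the last 2 the right edge was the same and the wild-type break was 25 bp shorter.

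**Figure D5:**
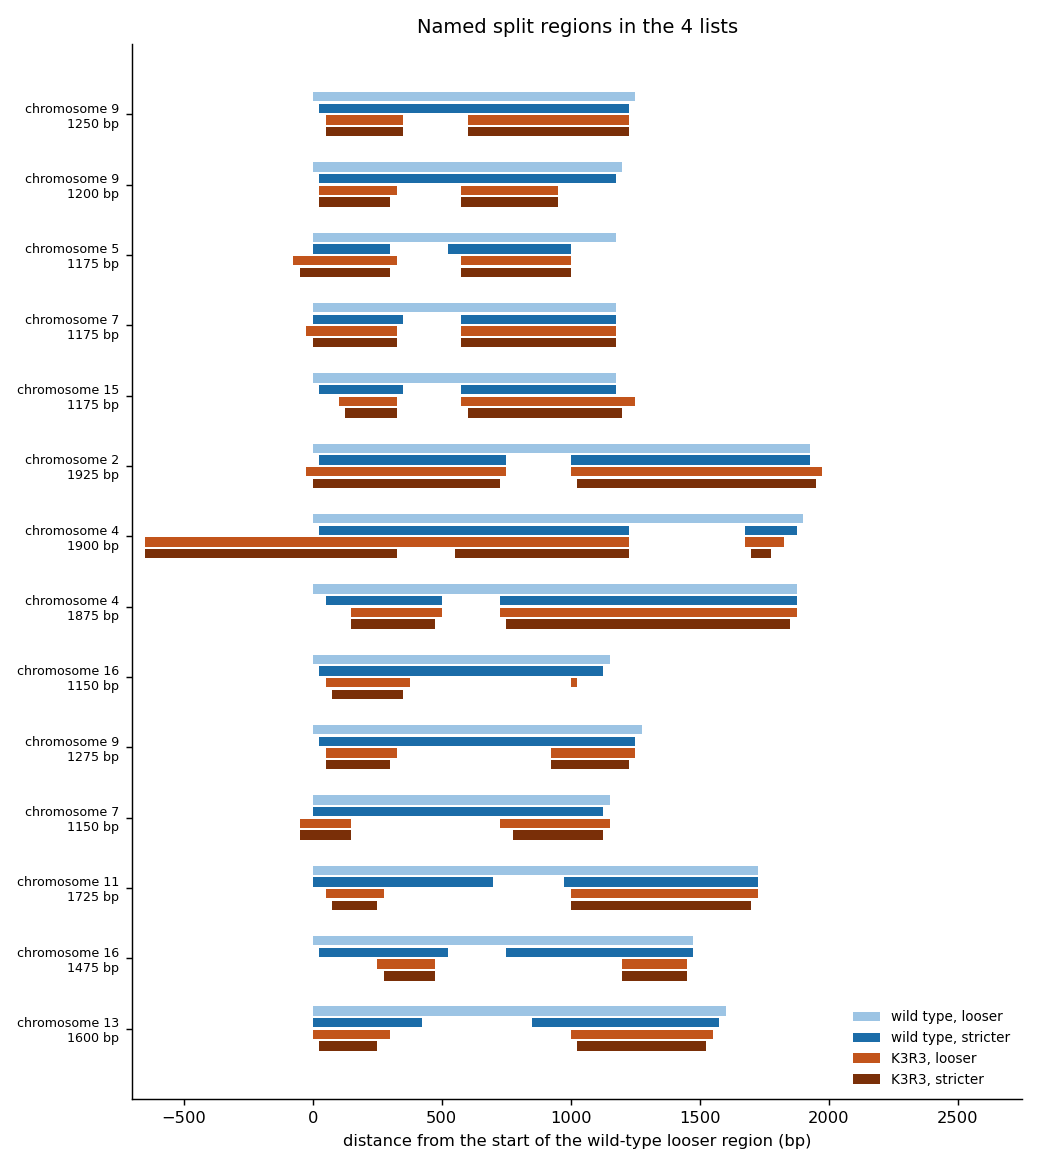
Named split regions, each as 4 bars (wild type looser and stricter, K3R3 looser and stricter) against the distance in bp from the start of the wild-type looser region. From the top: 5 regions nearest to the medians, 3 with identical gaps, 3 with the widest gaps crossed by the stricter wild-type list, and 3 with the widest gaps of all.

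The closest matches between K3R3 and the stricter wild type were identical at both edges. On chromosome 2 (31253976 to 31255900) both lists were open from 31254726 to 31254975, with K3R3 regions of 775 and 975 bp and stricter wild-type regions of 725 and 925 bp. On chromosome 7 (116317876 to 116319725) both were open from 116318601 to 116318975, a gap of 375 bp. A pair of regions on chromosome 4 had shared gaps of 450 bp (124664551 to 124665000) and 225 bp (128802426 to 128802650), and a region on chromosome 1 one of 225 bp (94593451 to 94593675). Identical edges thus occurred for wide gaps as well as for the narrowest.

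Among members with a single gap, the 5 widest gaps that the stricter wild type crossed lay in regions of 1050 to 1675 bp. On chromosome 16 (21204726 to 21205875) the K3R3 gap of 625 bp left 325 bp of K3R3 on 1 side and a piece of 25 bp on the other, and that piece was absent from the stricter K3R3 list. On chromosome 9 (62996276 to 62997550) a gap of 600 bp lay between K3R3 regions of 275 and 325 bp, and a stricter wild-type region of 1225 bp covered it. On chromosome 7 a gap of 575 bp (30600426 to 30601000) lay between K3R3 regions of 200 and 425 bp. The other 2 crossed gaps of this set, on chromosome 7 (51612851 to 51613400) and chromosome 11 (119138276 to 119138825), were each 550 bp wide. In 3 of these 5 regions the stricter K3R3 list kept both flanks.

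The 5 widest gaps of all, 625 to 725 bp with ties going to the wider region, were each matched in part by a break in the stricter wild type; the crossed gap of 625 bp on chromosome 16 lost the tie. On chromosome 11 (94293851 to 94295575) the K3R3 gap of 725 bp contained a stricter wild-type break of 275 bp. On chromosome 16 (22097051 to 22098525) a gap of 725 bp contained a break of 225 bp. On chromosome 13 (58374751 to 58376350) a gap of 700 bp contained a break of 425 bp with nearly the same centre, 12.5 bp away. The other 2 were on chromosome 2: the 625 bp gap in the 1975 bp region named above contained a break of 350 bp, and a 625 bp gap from 162757126 to 162757750 contained one of 525 bp. The wild-type break was the narrower in each of the 5, which the choice of the widest K3R3 gaps fixed in large part.

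Regions with 3 K3R3 pieces followed no single pattern. Of the 26, 16 had neither gap shown by the stricter wild-type list, 8 had 1 and 2 had both. In the widest, on chromosome 2 (20889601 to 20891525, 1925 bp), the K3R3 gaps of 225 and 450 bp both met breaks in the stricter wild type, of 250 and 225 bp. In the region of the same width on chromosome 4 (9770051 to 9771975), gaps of 225 and 250 bp were both crossed by a stricter wild-type region of 1900 bp. The 1900 bp region on chromosome 1 (72870301 to 72872200) had gaps of 325 and 450 bp, and the 1875 bp region on chromosome 13 (15554576 to 15556450) gaps of 550 and 350 bp around a K3R3 piece of only 25 bp. The stricter wild type crossed all 4 of these gaps. On chromosome 2 (164229726 to 164231575) it showed the gap of 325 bp and crossed that of 250 bp.

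Exchange of the libraries gave a like number of splits at the looser threshold but a lower share, and fewer splits at the stricter. Under the same limits, 949 of 98401 K3R3 regions (0.964%, 0.905 to 1.03) overlapped at least 2 wild-type regions. The wild-type share was 1.24% (1.16 to 1.31) of 81287 regions. These intervals do not overlap, but they cover only the counting error over regions of 1 library each. The lists were not matched for width, and in the wild type the share split rose with width. Split wild-type regions numbered 1.06 times the split K3R3 regions (95% interval 0.968 to 1.16), a ratio of counts from lists of unequal length. That interval includes 1, but with no width limit the ratio was 1.10 (1.02 to 1.19). With all chromosomes, which brings in those outside the rule, it was 1.32 (1.22 to 1.44). With both K3R3 lists together, a change to the K3R3 side only, it was 1.155 (1.06 to 1.26). None of these 3 intervals includes 1, but they too count regions of 1 library per group and do not test a difference between the groups. With the stricter lists of both libraries, 1195 wild-type regions (1.503%, 1.42 to 1.59) and 898 K3R3 regions (0.935%, 0.876 to 0.998) were split. Against the stricter K3R3 list alone the ratio was 3.465, and with the stricter wild-type list alone it turned to 0.425. The gaps were alike in width, with a median of 250 bp and 35.7% (32.8 to 38.8) of 968 gaps at 225 bp, although the widest reached 1400 bp. The stricter K3R3 list showed 42.9% (39.8 to 46.0) of these gaps and crossed 49.9% (46.7 to 53.0), against 35.3% and 59.6% for the wild type in its own split regions.

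How often the regions of a looser list were split depended on both the library and the threshold of the splitting list. The stricter wild-type list broke 1302 wild-type regions (1.60%, 1.52 to 1.69) and the looser K3R3 list 1004 (1.24%). The stricter K3R3 list broke 1729 (2.13%, 2.03 to 2.23). Among the K3R3 regions, 1781 (1.81%, 1.73 to 1.90) were broken by the stricter K3R3 list and 1470 (1.49%, 1.42 to 1.57) by the stricter wild-type list. The looser wild-type list broke 949 (0.964%). Breaks made by a stricter list of the same library were narrower, with a median of 225 bp in both libraries, against 250 bp between the libraries.

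Split regions were spread over all 17 autosomes. Chromosome 10 had the lowest share of its wild-type regions split, 0.992% (0.742 to 1.33), and chromosome 11 the highest, 1.51% (1.26 to 1.82), with overlapping intervals. Among regions of at least 500 bp the share lay between 3.14% on chromosome 10 and 4.36% on chromosome 3. The share of gaps shown by the stricter wild-type list ran from 25.8% on chromosome 7 (24 of 93) to 42.9% on chromosome 15 (21 of 49).

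They were also scattered along the chromosomes. Of the 646 windows of 1 Mb that held a split region, 419 held 1 and 144 held 2. The fullest was on chromosome 11 between 117 and 118 Mb, with 8 among 224 wild-type regions. Next came chromosome 1 between 74 and 75 Mb, with 6 among 156, and chromosome 4 between 133 and 134 Mb was the first by the rule for ties of 11 windows that held 5. Another wild-type region lay within 1000 bp of 35.8% (32.9 to 38.8) of split regions and of 35.4% (34.8 to 36.0) of regions of at least 500 bp with exactly 1 K3R3 region, so the 2 kinds had close neighbours at nearly the same rate.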

How the data were processed

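Regions enriched for YFP-tagged H2A.Z were available for 2 libraries, 1 per group. The authors deposited 4 lists whose values are region starts and ends in bp. Per the file headers, the thresholds were 1e-09 and 1e-12. The submitters' processing notes name Bowtie 0.12.3, bedtools and the mouse build mm9; neither the region caller nor its control is stated in the labels or headers. The tag LSWCE, which is not explained, stands in both libraries' track lines. Without heights or depth, a gap says only that no region was called there. Coordinates are printed 1-based.

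A gap was the stretch between consecutive K3R3 regions over a member. Named regions were 5 each with the widest gap, the most K3R3 regions, the closest match to a stricter wild-type break, the widest crossed gap and values nearest the medians, plus those beside the width limit and the fullest windows; ties went to the wider region. The last 3 of these sets of 5 hold only members with a single gap. The members, lists and rules were chosen with earlier results of these data known. The alternatives are given in the closing section. No genome or annotation of mm9 was used, and genes were not assigned. Computation used Python 3.11.15, numpy 2.4.6, scipy 1.17.1 and, for plots, matplotlib 3.10.9. The procedure recovered all 200 gaps planted in simulated data made from 82835 wild-type regions, and bedtools 2.31.1 gave the same 1004 members.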

Additional observations from a re-analysis of the deposited data

How the results depend on the processing

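The number of members and the state of their gaps depended on which lists were set against each other; why the values moved was not tested, except where a construction is named. No paired analysis was possible because neither group had a second library. When the stricter K3R3 list found the gaps, there were 1729 members, 29.0% of gaps shown and 65.9% crossed by the stricter wild type, and a ratio of wild-type to K3R3 regions split of 3.465. When the stricter wild-type list held the members, there were 625 and the ratio turned to 0.425. Lists of unequal threshold differ in breaks by their construction, so these ratios do not compare the libraries. Joining K3R3 regions up to 300 bp apart left 227 members with a median gap of 375 bp, 41.4% shown and 53.45% crossed, and a ratio of 0.0986, since only 1 library was joined. An overlap of at least 100 bp gave a median distance from the centre of 21.85% and 94.3% of gaps with stricter K3R3 regions on both sides. No width limit gave 27.3% and 86.3% for these. All chromosomes together gave a ratio of 1.32. Keeping only gaps of at least 300 bp, chosen after seeing the data, left 301 members with a median gap of 350 bp, 43.5% shown and 51.3% crossed. Using both K3R3 lists together, also chosen afterwards, left each value within the 95% interval of the reported one, and the count within 1.5 times. The interval of the ratio of 1.155 (1.06 to 1.26) no longer included 1, but this setting changed the K3R3 side only. The ratio's interval also did not include 1 with no width limit (1.10, 1.02 to 1.19) or all chromosomes (1.22 to 1.44), which brings in those outside the rule. All these intervals cover the counting error over regions only, so they do not test a difference between the groups. Counting a stricter region only where 50% of it lay inside changed no share by width class, since every stricter region that met a looser one lay wholly inside it. Depth is unknown, which limits what a gap of 225 bp, the smallest possible, can show.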

Other observations

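Wild-type regions were split more often on the chromosomes outside the rule than on the 17 autosomes used. Wild-type regions under 2000 bp were split in 128 of 7471 cases (1.71%, 1.44 to 2.03) on chromosome 6. On chromosome 8 they were split in 152 of 7571 (2.01%, 1.72 to 2.35). K3R3 regions were split in 22 of 5852 cases (0.376%) on chromosome 6 and in 17 of 6168 (0.276%) on chromosome 8. On X, 44 of 1522 wild-type regions (2.89%, 2.16 to 3.86) and 15 of 1821 K3R3 regions (0.824%, 0.4998 to 1.36) were split. On all 3 chromosomes the wild-type share was the higher, and its interval did not overlap that of K3R3. The same held on the 17 autosomes used, by less, with 1.24% (1.16 to 1.31) against 0.964% (0.905 to 1.03). These intervals cover the counting error over regions of 1 library each, and the shares were not matched for width. K3R3 had fewer regions than the wild type on chromosomes 6 and 8, but more on X and on the 17 autosomes used.

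Split regions were not concentrated where H2A.Z regions are dense. Among wild-type regions of 500 to 2000 bp, 4.06% (3.26 to 5.06) were split in windows of 1 Mb with under 20 wild-type regions and 4.66% (4.12 to 5.28) in those with 20 to 50. The shares were 3.38% (3.03 to 3.77) with 50 to 100 and 3.27% (2.96 to 3.61) with 100 or more. The median width of the regions compared was 775 to 825 bp across these classes.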
